A study of Homo sapiens with 75 samples.

Results

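The genes described here encode surface proteins through which a B cell is seen by T cells and other immune cells. The list held 10 genes, chosen by identifier for that role and not for a measured value. They were the ligands CD80 (ENSG00000121594_at), CD86 (ENSG00000114013_at), ICOSLG (ENSG00000160223_at), CD274 (ENSG00000120217_at), CD70 (ENSG00000125726_at) and CD58 (ENSG00000116815_at), and the receptors CD27 (ENSG00000139193_at), FAS (ENSG00000026103_at), TNFRSF14 (ENSG00000157873_at) and SLAMF1 (ENSG00000117090_at). Of these, 9 had a row among the 19536 genes of the deposited table, and all 9 were among the 11745 genes tested. CD58 was not analysed here. The table names genes by identifier alone, so related genes and cell type markers were not analysed here either.

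RNA came from 5 human diffuse large B-cell lymphoma lines, DHL4, DHL6, LY7, HBL1 and U2932, and was measured on Affymetrix HG-U133 arrays, 1 array per sample. In each line the groups were R406 for 6 h, R406 for 24 h, and DMSO, the vehicle, for 0, 6 and 24 h, with 3 arrays lettered A, B and C in every group. That made 25 groups and 75 arrays, none of them identical to another. R406 is an inhibitor of the kinase SYK, the labels name no dose, and DMSO was the only other agent named. No genotype or engineered change is given for the lines. The labels do not say that the letters are separate cultures. The p-values below therefore measure the spread between these arrays, which may be technical. The exception is the tests with lines as replicates, which use the spread between the responses of the 5 lines.

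In B cells the B cell receptor signals through SYK, and that signal shapes which surface proteins the cell makes. CD80 and CD86 are ligands for CD28, which sustains T cell activation, and for CTLA-4, which restrains it. ICOSLG binds ICOS, and CD274, also called PD-L1, binds the inhibitory receptor PD-1. CD70 is a ligand of the tumour necrosis factor family, and CD27 is its receptor. FAS is a receptor that starts cell death when bound by its ligand, TNFRSF14 (HVEM) is a receptor for LIGHT and a ligand for BTLA, and SLAMF1 is a receptor that binds itself on neighbouring cells. The arrays measured RNA in whole cultures, not protein at the surface. A lower value can mean fewer cells with the transcript or less of it per cell, and these cannot be told apart.

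Levels below are log2 values of 1 gene-level probe set per gene, made with RMA, and responses are the R406 mean minus the DMSO mean of the same line and time. A response of 1 is a 2-fold difference. Levels of different genes are not compared, because each probe set has its own scale. Standard errors (SE) and p-values came from a linear model fitted with limma to all 75 arrays and all 11745 genes, two-sided, with p-values adjusted by the Benjamini-Hochberg method over the genes within a comparison. A gene is said to have risen or fallen only at an adjusted p under 0.05. The filter kept a gene when its highest group mean lay above 5.89, the median of the table. In single lines some of the 9 genes stayed under that level in all 5 groups, namely 4 genes in DHL4, 4 in LY7, 3 in HBL1, 2 in U2932 and 1 in DHL6, and values there lie in the lower part of the scale.

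Upstream sequence from RefSeq (GRCh38.p14) was found for 8 of the 9 genes. The 250 bases before the start are shown for CD80, CD86, ICOSLG and SLAMF1, the 4 genes whose RNA fell in R406-treated DHL6 cells at 24 h (values below). CD80 is at chr3:119559615-119559864 on the minus strand, CD86 has an upstream start at chr3:122055112-122055361 and a downstream start at chr3:122077534-122077783, both on the plus strand, ICOSLG is at chr21:44240944-44241193 on the minus strand, and SLAMF1 is at chr1:160647045-160647294 on the minus strand. The sequences run 5′ to 3′ along the gene, and capitals mark matches to an NF-kB motif.
CD80: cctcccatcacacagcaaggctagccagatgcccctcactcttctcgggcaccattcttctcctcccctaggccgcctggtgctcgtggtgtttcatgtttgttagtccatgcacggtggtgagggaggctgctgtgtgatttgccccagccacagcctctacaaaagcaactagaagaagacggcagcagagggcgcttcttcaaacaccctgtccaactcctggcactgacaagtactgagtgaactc
CD86 upstream start: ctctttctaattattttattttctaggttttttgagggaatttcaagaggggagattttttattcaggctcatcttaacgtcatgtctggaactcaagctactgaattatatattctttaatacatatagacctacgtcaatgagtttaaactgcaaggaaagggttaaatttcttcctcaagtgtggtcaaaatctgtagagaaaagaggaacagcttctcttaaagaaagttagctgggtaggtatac
CD86 downstream start: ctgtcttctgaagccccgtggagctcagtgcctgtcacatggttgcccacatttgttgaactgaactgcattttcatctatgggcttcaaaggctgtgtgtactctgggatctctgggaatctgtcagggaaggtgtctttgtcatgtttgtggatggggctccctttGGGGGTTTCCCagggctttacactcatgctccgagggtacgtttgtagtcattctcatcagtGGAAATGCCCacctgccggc
ICOSLG: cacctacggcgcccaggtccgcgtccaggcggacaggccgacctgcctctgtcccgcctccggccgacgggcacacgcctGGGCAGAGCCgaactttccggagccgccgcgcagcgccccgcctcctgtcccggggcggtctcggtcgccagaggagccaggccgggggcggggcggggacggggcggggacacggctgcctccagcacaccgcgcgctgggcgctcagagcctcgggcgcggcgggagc
SLAMF1: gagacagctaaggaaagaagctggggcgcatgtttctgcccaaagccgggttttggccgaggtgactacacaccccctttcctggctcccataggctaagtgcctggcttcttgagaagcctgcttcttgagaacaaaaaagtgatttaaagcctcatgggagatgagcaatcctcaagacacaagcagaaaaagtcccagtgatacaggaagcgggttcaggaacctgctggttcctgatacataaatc
Both strands were searched for GTAAACA (FOXO), GCGTGGG (EGR), TGANTCA (AP-1) and GGGNNNNNCC (NF-kB). The window before the downstream CD86 start held 3 NF-kB matches, some of them overlapping, the ICOSLG window held 1, and the other 3 windows held no match to any of the 4 motifs. Of 35116 human windows of the same length, 54.4% held the NF-kB letters, 6.57% the AP-1 letters, 6.19% the EGR letters and 2.98% the FOXO letters. A match describes letters in the sequence and not a bound site, and the arrays do not tell which CD86 start was used.

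The lines differed in their starting levels, in DMSO at 0 h. All 9 genes differed among the 5 lines by the moderated F-test, as did 89.5% of all genes tested. CD80 was highest in DHL6 at 7.84 ± 0.08 (SD, n = 3 arrays), then U2932 at 6.10, HBL1 at 4.74, LY7 at 4.50 and DHL4 at 4.08, and every neighbour in that order differed, with adjusted p of 0.00320 or lower. CD86 fell into a high pair, DHL4 at 9.01 and DHL6 at 8.87, and a lower set, LY7 at 7.06, HBL1 at 6.91 and U2932 at 6.81. Within the pair the difference was 0.14 (adjusted p = 0.120), and the neighbours in the lower set did not differ beyond their spread either (adjusted p of 0.0699 and 0.276). The ends of the lower set, LY7 and U2932, did differ in their pair contrast.

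ICOSLG was also high in DHL4 and DHL6 and low in HBL1 and U2932, but LY7 stood with the high lines, with DHL4 at 6.72, LY7 at 6.69 and DHL6 at 6.68 close together, and U2932 at 6.20 and HBL1 at 6.10 below them. The step between DHL6 and U2932 was 0.48 (adjusted p = 1.68e-09), and the other neighbours did not differ beyond their spread. CD274 stood out in HBL1 at 7.24, against 5.32 in DHL6, the next line, a gap of 1.93 (adjusted p = 1.11e-28). The remaining 4 lines lay between 5.07 and 5.32, and no neighbours among them differed beyond their spread. DHL6 was still higher than LY7 and U2932, which lie further down the order, in their pair contrasts.

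CD70 was high in U2932 at 10.46, HBL1 at 10.22 and DHL6 at 10.10, and much lower in DHL4 at 7.84 and LY7 at 7.13. HBL1 and DHL6 did not differ beyond their spread (adjusted p = 0.292), and the step from DHL6 down to DHL4 was 2.26 (adjusted p = 3.88e-29). Its receptor CD27 was at 11.00 in DHL4, 10.28 in DHL6, 10.20 in U2932 and 9.84 in LY7, but at 5.41 ± 0.29 (SD, n = 3) in HBL1, under the filter level. The measured gap between LY7 and HBL1 was 4.43 on the log2 scale (adjusted p = 2.30e-36). HBL1 thus had the least CD27 with high CD70, and DHL4 the most CD27 with low CD70. The other lines did not share this inverse order. DHL6 and U2932, both high in CD70, had CD27 at 10.28 and 10.20. LY7 had the least CD70 and, after HBL1, the least CD27.

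FAS ran from U2932 at 7.16 through DHL6 at 6.75, HBL1 at 6.18 and LY7 at 5.35 to DHL4 at 3.79, and every neighbour differed, with adjusted p of 4.20e-05 or lower. TNFRSF14 spanned little, from 6.69 in HBL1 to 6.05 in DHL6, and only HBL1 differed from its neighbour (adjusted p = 0.00362). DHL6 was also lower than LY7 and U2932, which are not its neighbours, in their pair contrasts. SLAMF1 was at 7.41 in DHL6 and between 4.92 and 5.42 in the other lines, a gap of 1.99 to DHL4 (adjusted p = 4.05e-28). The plot of levels shows these orders array by array.

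**Figure D1:**
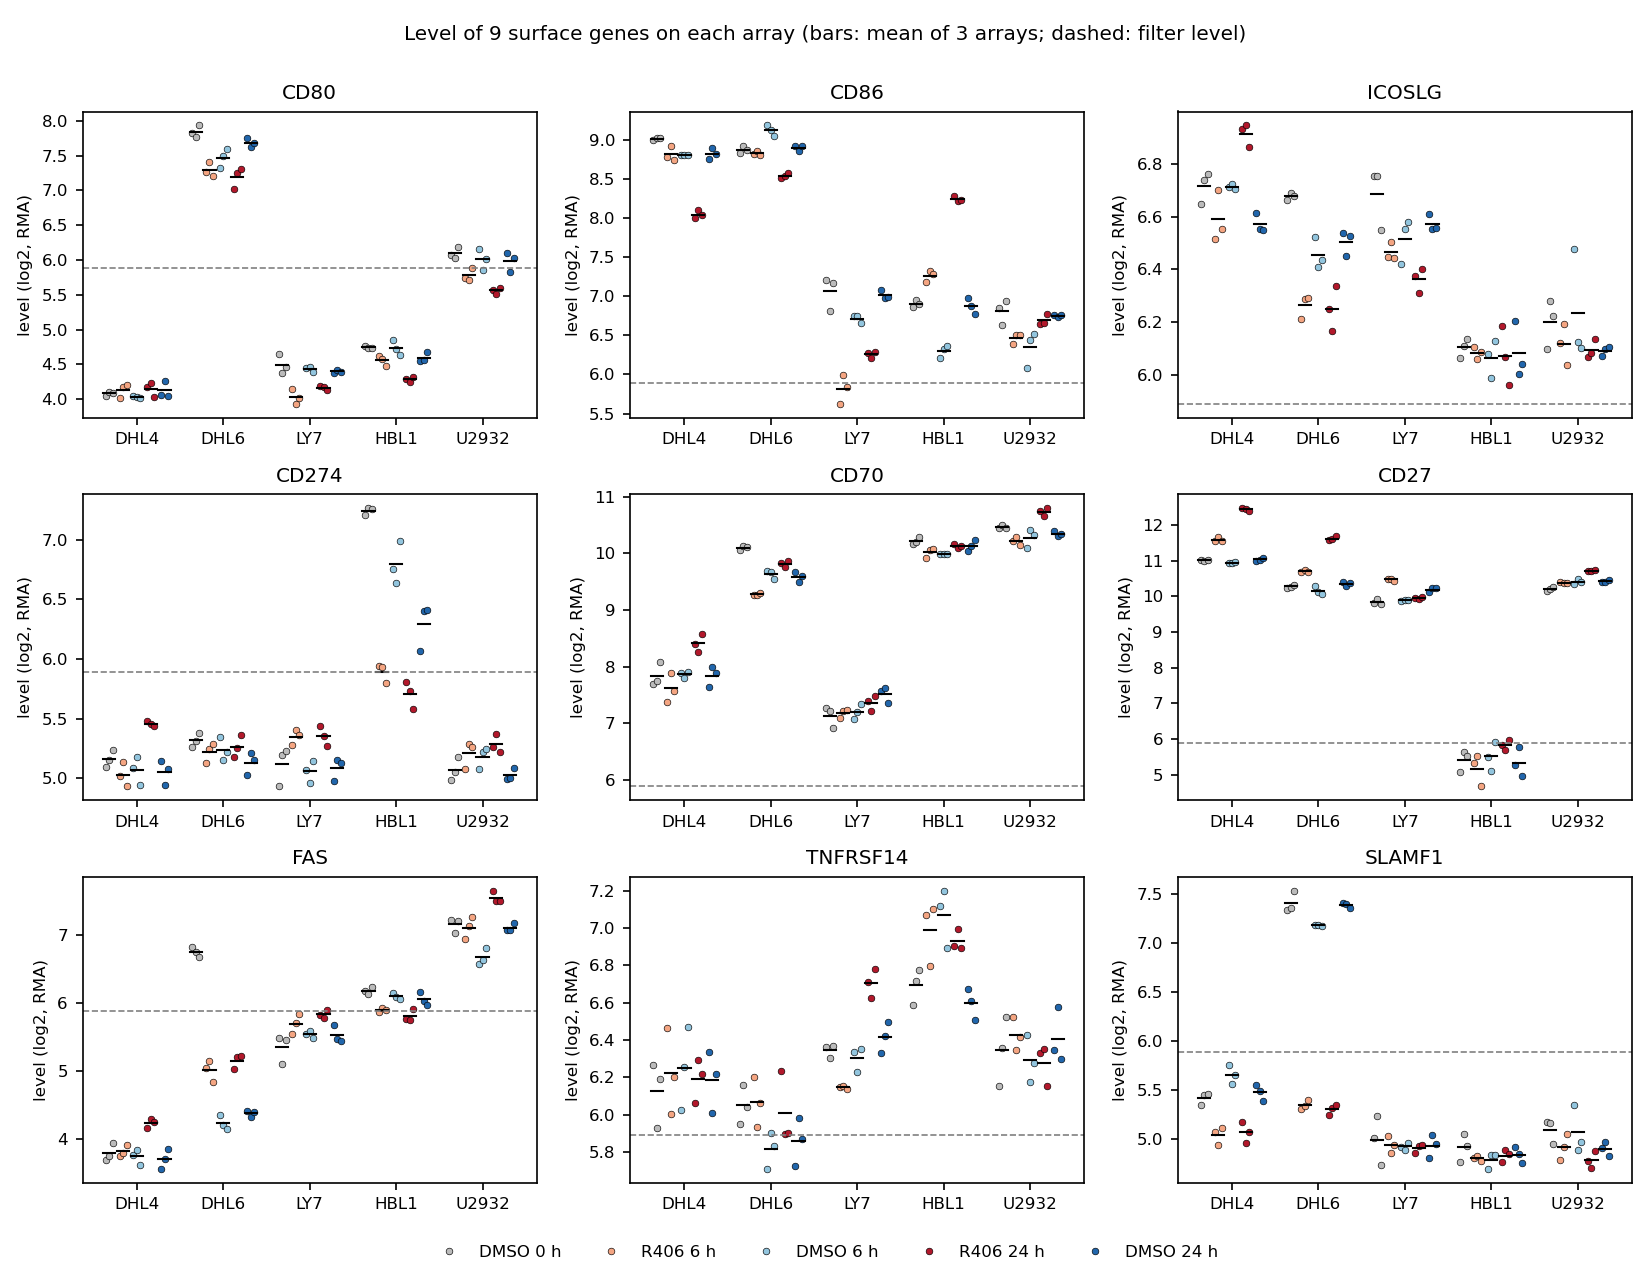
Log2 level of each of the 9 genes on every array, by line, with treatment and time in colour. Black bars are means of 3 arrays and the dashed line is the filter level of 5.89. SLAMF1 lies above that line only in DHL6 without R406, and CD27 lies below it on the average in every HBL1 group.

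Across the 9 genes, 10 combinations of line and time gave 90 responses. Of these, 24 were rises, 23 were falls and 43 did not pass the test, and 5 of those that passed reached 2-fold. DHL4 had 3 of the 9 genes passing at 6 h (52.3% of all genes tested passed) and 7 at 24 h (69.2%). DHL6 had 6 at 6 h (39.7%) and 7 at 24 h (60.7%), and LY7 had 4 at 6 h (47.9%) and 6 at 24 h (59.3%). HBL1 had 2 at 6 h (22.3%) and 6 at 24 h (43.7%), and U2932 had 2 at 6 h (28.5%) and 4 at 24 h (36.6%). R406 changed a large share of all genes, so a count of changed genes is not by itself a result about these 9. In 14 of the 47 responses that passed, both group means lay under the filter level.

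**Figure D2:**
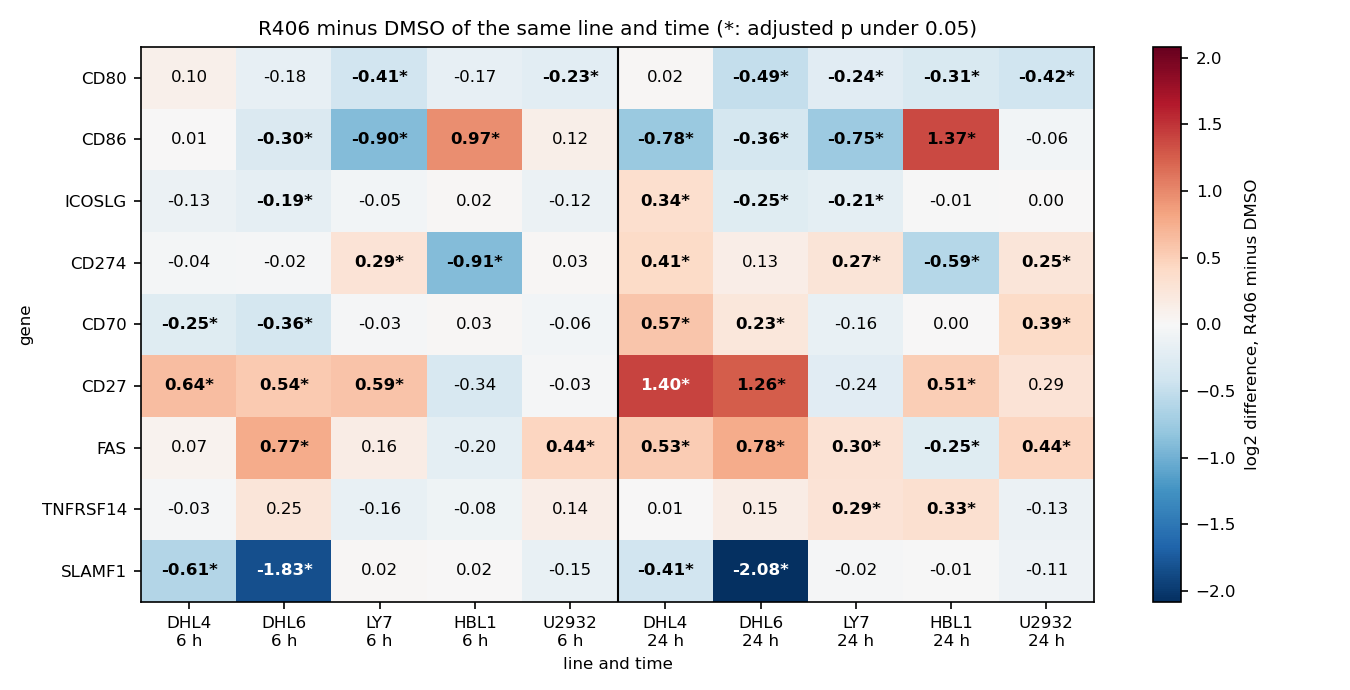
R406 minus DMSO of the same line and time for the 9 genes, as log2 differences written in the cells, with colour for direction. Bold values with a star have an adjusted p under 0.05. CD86 is positive in HBL1 (0.97 and 1.37) and negative in LY7 (-0.90 and -0.75), and the lowest values are those of SLAMF1 in DHL6 (-1.83 and -2.08).

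CD86 fell in 3 lines and rose in 1. In HBL1 the 24 h arrays read 8.28, 8.21 and 8.23 with R406, against 6.97, 6.88 and 6.78 with DMSO. Every R406 array was far above every DMSO array, and the response of 1.37 ± 0.08 (SE, adjusted p = 8.35e-22), or 2.58-fold, was the 23rd highest of the 11745 genes in that comparison. At 6 h the HBL1 arrays read 7.18, 7.33 and 7.29 with R406 against 6.21, 6.33 and 6.36 with DMSO, a response of 0.97 ± 0.08 (adjusted p = 2.22e-15) that ranked 8th highest. Part of that earlier gap lay on the DMSO side, because CD86 in HBL1 with DMSO was 6.91 at 0 h, 6.30 at 6 h and 6.88 at 24 h. Set against DMSO at 0 h, the HBL1 response at 6 h was 0.36 (adjusted p = 0.000171) and that at 24 h was 1.34 (adjusted p = 8.42e-22).

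In LY7 CD86 moved the other way. Its 6 h arrays read 5.63, 5.99 and 5.84 with R406 against 6.74, 6.74 and 6.66 with DMSO, a response of -0.90 ± 0.08 (adjusted p = 7.99e-15). The 24 h arrays read 6.28, 6.21 and 6.29 with R406 against 7.07, 6.97 and 6.98 with DMSO, a response of -0.75 ± 0.08 (adjusted p = 1.40e-12). The groups did not overlap at either time, and all R406 arrays were the low ones.

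DHL4, which with DHL6 formed the high pair in CD86 at 0 h, was slower. At 6 h its R406 arrays (8.78, 8.92 and 8.74) lay around its DMSO arrays (8.81, 8.80 and 8.81), with a response of 0.01 and a 95% interval of -0.15 to 0.16. By 24 h they were 8.00, 8.10 and 8.04 with R406 against 8.76, 8.89 and 8.82 with DMSO, clearly separate, with a response of -0.78 ± 0.08 (adjusted p = 2.71e-13). DHL6 fell less, with responses of -0.30 at 6 h (adjusted p = 0.00141) and -0.36 at 24 h (adjusted p = 7.19e-05). Against DMSO at 0 h the DHL6 value at 6 h was -0.05 (adjusted p = 0.662), and CD86 in DHL6 with DMSO averaged 9.12 at 6 h, against 8.87 at 0 h. U2932 responses were 0.12 (95% interval -0.03 to 0.28) at 6 h and -0.06 (-0.22 to 0.10) at 24 h, and neither passed the test.

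CD80, the other ligand of CD28, fell in 6 of its 10 comparisons and rose in none. In single comparisons 22.3% to 69.2% of all genes tested passed in either direction. In DHL6, the line with the most CD80, the 24 h arrays read 7.02, 7.25 and 7.30 with R406 against 7.76, 7.62 and 7.68 with DMSO. All R406 arrays were below all DMSO arrays, and the response was -0.49 ± 0.08 (adjusted p = 1.05e-07). U2932 at 24 h read 5.58, 5.51 and 5.60 with R406 against 6.09, 5.82 and 6.04 with DMSO, again without overlap, with a response of -0.42 ± 0.08 (adjusted p = 8.85e-06).

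The falls of CD80 in LY7 and HBL1 were in cells with low levels. LY7 had responses of -0.41 at 6 h (adjusted p = 8.41e-06) and -0.24 at 24 h (adjusted p = 0.00552), and HBL1 fell by 0.31 at 24 h (adjusted p = 0.000578), in all of them with group means under the filter level. The fall of 0.23 in U2932 at 6 h (adjusted p = 0.0185) depended on the processing and on single arrays. It was -0.14 with array weights (adjusted p = 0.195) and -0.16 after cyclic loess, another normalization between arrays (adjusted p = 0.153). Without DMSO array A of that group, the array with the widest residual spread of all 75, it was -0.15 (adjusted p = 0.203), and without R406 array A or B its adjusted p was 0.0663 or 0.0887. DHL4, with the lowest level, responded by 0.10 at 6 h (95% interval -0.05 to 0.25) and by 0.02 at 24 h (-0.13 to 0.17).

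In HBL1 at 24 h the ligands CD80 and CD86 therefore went in opposite directions, with CD80 arrays of 4.29, 4.25 and 4.31 with R406 against 4.55, 4.56 and 4.67 with DMSO. In LY7 and DHL6 both fell at 24 h.

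ICOSLG moved little. In DHL4 at 24 h it read 6.93, 6.95 and 6.86 with R406 against 6.61, 6.55 and 6.55 with DMSO, separate groups and a rise of 0.34 ± 0.06 (adjusted p = 3.61e-06). In DHL6 at 24 h it read 6.25, 6.17 and 6.34 with R406 against 6.54, 6.45 and 6.53 with DMSO, also separate but a fall of 0.25 (adjusted p = 0.000472), and LY7 fell by 0.21 (adjusted p = 0.00332). The 6 h fall of 0.19 in DHL6 (adjusted p = 0.0115) had an adjusted p of 0.0799 without DMSO array A and 0.0605 without R406 array A. In HBL1 and U2932 no ICOSLG response passed, and the 24 h intervals were -0.14 to 0.12 in HBL1 and -0.12 to 0.13 in U2932.

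CD274 fell in HBL1, the line with the highest level. HBL1 at 6 h read 5.94, 5.93 and 5.80 with R406 against 6.76, 6.64 and 6.99 with DMSO, and at 24 h 5.81, 5.73 and 5.58 with R406 against 6.07, 6.40 and 6.41 with DMSO. No R406 array reached any DMSO array of its time, and the responses were -0.91 ± 0.08 (adjusted p = 2.12e-13) and -0.59 ± 0.08 (adjusted p = 2.55e-08). CD274 in HBL1 also fell in DMSO alone, with means of 7.24 at 0 h, 6.80 at 6 h and 6.29 at 24 h. Against the 0 h arrays the R406 values were lower by more, with differences of -1.35 and -1.54.

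In the other lines CD274 stayed under the filter level in every group, between 5.03 and 5.46. There it rose by 0.29 at 6 h (adjusted p = 0.00275) and 0.27 at 24 h (adjusted p = 0.00422) in LY7, by 0.41 at 24 h in DHL4 (adjusted p = 1.90e-05) and by 0.25 at 24 h in U2932 (adjusted p = 0.0114). The U2932 rise had an adjusted p of 0.0732 without R406 array B. HBL1 and LY7 thus had opposite responses in CD86 and in CD274: CD86 rose and CD274 fell in HBL1, and CD86 fell and CD274 rose in LY7.

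**Figure D3:**
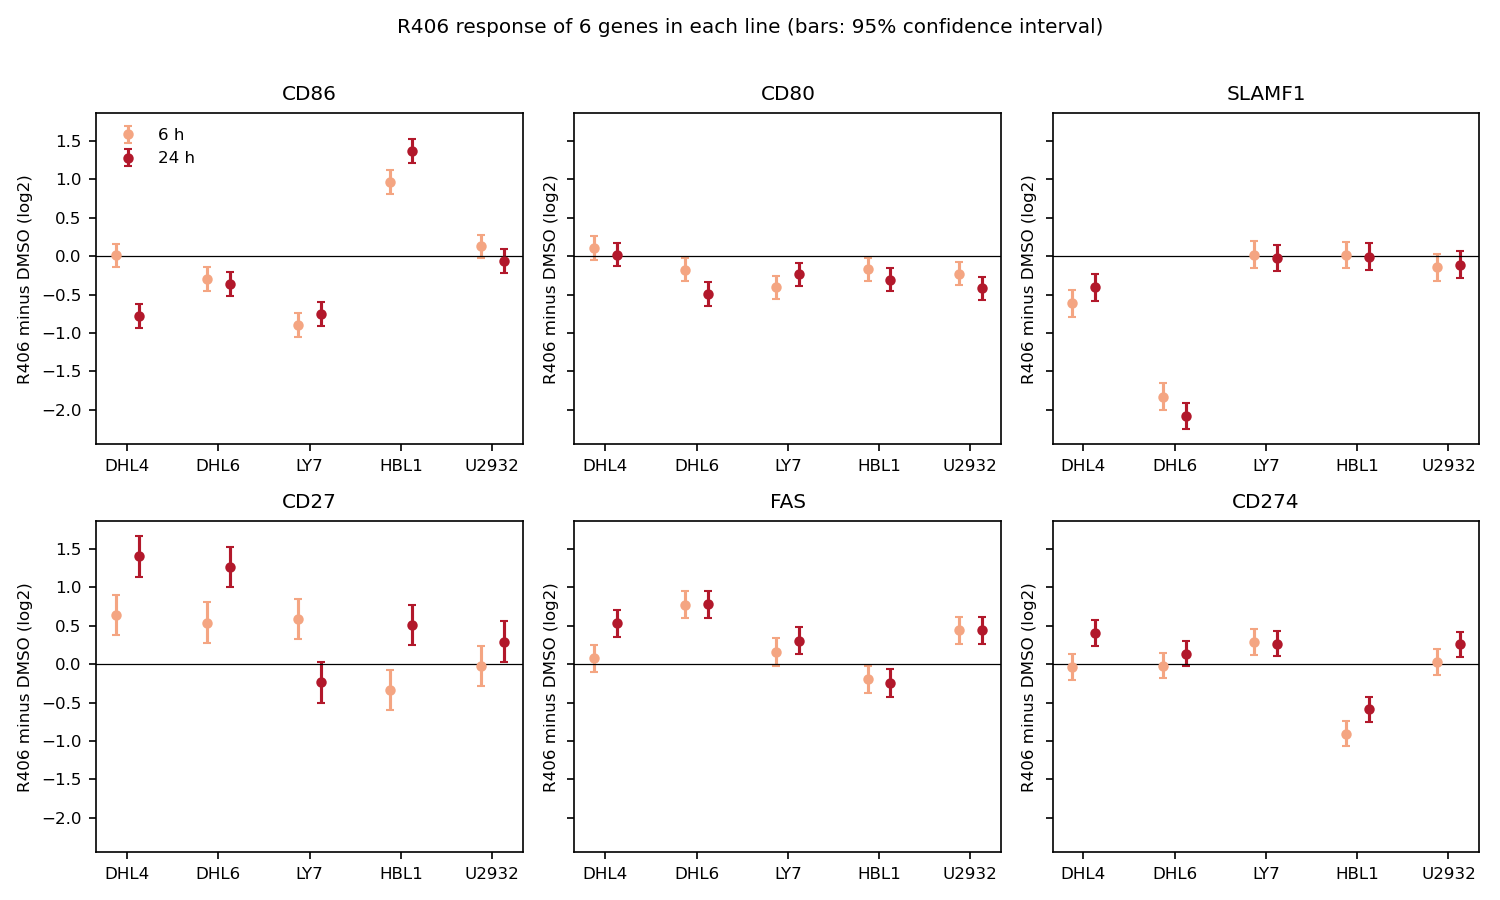
Log2 response (R406 minus DMSO) of 6 genes in each line at 6 h and 24 h, with 95% confidence intervals from the linear model as bars. Intervals of CD86 in HBL1 lie above 0 and those in LY7 below it, and for CD274 the HBL1 intervals lie below 0 and the LY7 intervals above it.

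CD27 rose in 6 of its 10 comparisons and fell in none, while 22.3% to 69.2% of all genes tested passed in single comparisons. Its largest rises were in DHL4 and DHL6. In DHL4 it read 11.55, 11.65 and 11.53 with R406 against 10.94, 10.92 and 10.96 with DMSO at 6 h, and 12.47, 12.44 and 12.38 with R406 against 10.99, 11.01 and 11.08 with DMSO at 24 h. The arrays of the groups were far apart at both times, and the responses were 0.64 ± 0.13 (adjusted p = 3.52e-05) and 1.40 ± 0.13 (adjusted p = 3.28e-14), or 2.64-fold at 24 h. DHL6 did nearly the same, with 10.68, 10.72 and 10.68 with R406 against 10.28, 10.13 and 10.06 with DMSO at 6 h, and 11.57, 11.59 and 11.69 with R406 against 10.39, 10.29 and 10.37 with DMSO at 24 h. Its responses were 0.54 ± 0.13 (adjusted p = 0.000611) and 1.26 ± 0.13 (adjusted p = 2.67e-12), and they too came without overlap.

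LY7 differed in time course. At 6 h it read 10.48, 10.49 and 10.44 with R406 against 9.86, 9.89 and 9.90 with DMSO, a rise of 0.59 ± 0.13 (adjusted p = 0.000152). At 24 h it read 9.95, 9.91 and 9.98 with R406 against 10.11, 10.22 and 10.23 with DMSO, and now the R406 arrays were the lower ones. That response, -0.24 ± 0.13, did not pass (adjusted p = 0.115). U2932 at 24 h was a similar case, with 10.70, 10.70 and 10.73 with R406 against 10.39, 10.41 and 10.46 with DMSO, no overlap, and a response of 0.29 ± 0.13 (adjusted p = 0.0775).

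The SE of CD27 was the largest of the 9 genes because 1 spread is estimated over all lines, and its arrays scattered in HBL1, with SDs of 0.13 to 0.44 there. In a fit on the 60 arrays of the other 4 lines, an alternative chosen after these values had been seen, the SE was 0.05. Under that fit the 24 h responses of -0.24 in LY7 (adjusted p = 1.34e-05) and 0.29 in U2932 (adjusted p = 1.36e-06) passed, and the rises in DHL4 and DHL6 and that of LY7 at 6 h kept their calls. The direction in LY7 at 24 h depended on the control, since against DMSO at 0 h the value in the fit of all lines was 0.10 (adjusted p = 0.525). HBL1 itself, where CD27 was under the filter level, read 5.85, 5.71 and 5.97 with R406 against 5.26, 5.77 and 4.97 with DMSO at 24 h. These groups overlapped, and the response of 0.51 ± 0.13 (adjusted p = 0.00108) was 0.33 without DMSO array C (adjusted p = 0.0530). Its SE comes from the spread shared by all lines, while the HBL1 DMSO arrays at 24 h had an SD of 0.40. At 6 h the HBL1 response of CD27 was -0.34 and did not pass (adjusted p = 0.0533). It ran from -0.54 to -0.09 in the 6 fits without 1 array and passed in 3 of them.

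CD70, the ligand of CD27, changed sign with time in the lines where both times passed. In DHL4 at 24 h it read 8.40, 8.26 and 8.57 with R406 against 7.64, 7.99 and 7.89 with DMSO, a rise of 0.57 ± 0.09 (adjusted p = 3.13e-07) without overlap. At 6 h it had read 7.39, 7.89 and 7.58 with R406 against 7.90, 7.81 and 7.91 with DMSO, overlapping groups and a response of -0.25 (adjusted p = 0.0201). That fall lost its call without R406 array A (adjusted p = 0.265) or C (0.0659) or DMSO array A (0.0566) or C (0.0608), and after cyclic loess (adjusted p = 0.0614).

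DHL6 was more even at 6 h, with 9.26, 9.27 and 9.30 with R406 against 9.68, 9.68 and 9.55 with DMSO, separate groups and a fall of 0.36 ± 0.09 (adjusted p = 0.00135). At 24 h it read 9.84, 9.76 and 9.86 with R406 against 9.68, 9.50 and 9.60 with DMSO, a rise of 0.23 (adjusted p = 0.0312) without overlap. The 24 h rise depended on the baseline and the scaling: it was -0.28 against DMSO at 0 h (adjusted p = 0.00834), because CD70 in DHL6 had fallen by 0.51 in DMSO over 24 h, and 0.15 after subtraction of array medians (adjusted p = 0.170). It also missed the threshold without R406 array A (adjusted p = 0.0725) or C (0.0849) or DMSO array B (0.129) or C (0.0585). U2932 rose at 24 h, with 10.75, 10.66 and 10.80 with R406 against 10.40, 10.31 and 10.34 with DMSO, a response of 0.39 ± 0.09 (adjusted p = 0.000655). In HBL1, which had high CD70, the responses were 0.03 (95% interval -0.16 to 0.21) at 6 h and 0.00 (-0.19 to 0.19) at 24 h.

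FAS rose with R406 in 4 lines, measured against DMSO of the same time. U2932, with the highest level, read 6.95, 7.13 and 7.27 with R406 against 6.58, 6.63 and 6.82 with DMSO at 6 h, and 7.66, 7.50 and 7.51 with R406 against 7.08, 7.09 and 7.19 with DMSO at 24 h. Both rises were 0.44 ± 0.09 (adjusted p = 8.97e-05 at 6 h and 5.35e-05 at 24 h), and the arrays did not overlap. At 24 h FAS also rose by 0.53 in DHL4 (adjusted p = 4.10e-07) and by 0.30 in LY7 (adjusted p = 0.00227), in both from levels under the filter level. HBL1 fell by 0.25 at 24 h (adjusted p = 0.0189), a call lost after cyclic loess (adjusted p = 0.103), after subtraction of array medians (adjusted p = 0.0508), and without DMSO array A (0.115), R406 array A (0.0708) or R406 array B (0.0762).

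In DHL6 the FAS result turned on the baseline. The DMSO arrays read 6.82, 6.75 and 6.68 at 0 h, 4.36, 4.21 and 4.15 at 6 h, and 4.41, 4.32 and 4.40 at 24 h. In vehicle alone FAS thus fell by 2.51 ± 0.09 at 6 h (SE, adjusted p = 9.56e-31), the 6th lowest of 11745 genes, and its change at 24 h was -2.37 (adjusted p = 1.96e-29), the 7th lowest. The R406 arrays read 5.05, 5.15 and 4.84 at 6 h and 5.03, 5.20 and 5.23 at 24 h, above every DMSO array of the same time and below every 0 h array.

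The DHL6 response was accordingly 0.77 ± 0.09 at 6 h (adjusted p = 1.23e-10) and 0.78 ± 0.09 at 24 h (adjusted p = 3.76e-11) against DMSO of the same time, but -1.74 and -1.60 against DMSO at 0 h. All FAS means in DHL6 other than that of DMSO at 0 h lay under the filter level. With R406 the fall of FAS seen in DMSO was smaller, and FAS did not exceed its starting level. U2932 at 6 h was a milder case, since its DMSO mean was 7.16 at 0 h and 6.68 at 6 h, and its R406 value was -0.04 against 0 h (adjusted p = 0.758). The plot against both controls shows DHL6 apart from all other responses.

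**Figure D4:**
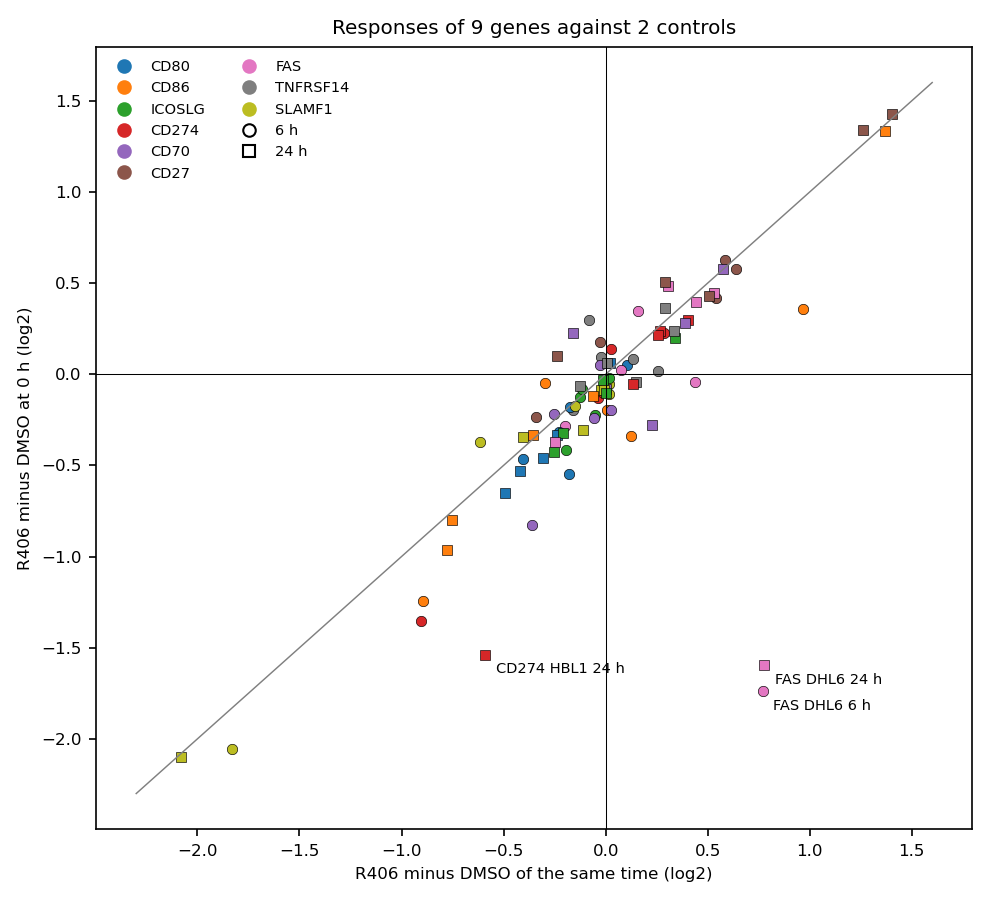
Each of the 90 responses as R406 minus DMSO of the same time (x axis, log2) and as R406 minus DMSO at 0 h (y axis, log2), with genes in colour and times as symbols. The diagonal marks equal values, and both axes share the R406 arrays. FAS in DHL6 lies at 0.77 and 0.78 on the x axis and at -1.74 and -1.60 on the y axis.

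TNFRSF14 passed in 2 of its 10 comparisons, while 22.3% to 69.2% of all genes tested passed in single comparisons. It rose in LY7 at 24 h, with 6.71, 6.63 and 6.78 with R406 against 6.33, 6.42 and 6.50 with DMSO, by 0.29 ± 0.11 (adjusted p = 0.0164). HBL1 at 24 h read 6.90, 7.00 and 6.89 with R406 against 6.67, 6.61 and 6.51 with DMSO, a rise of 0.33 ± 0.11 (adjusted p = 0.00841). Neither pair of groups overlapped. The LY7 rise had an adjusted p of 0.0744 without DMSO array A and 0.0679 without R406 array C, and the HBL1 rise was 0.24 against DMSO at 0 h (adjusted p = 0.0593). None of the 5 responses at 6 h passed.

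SLAMF1 gave the deepest falls of the list in DHL6, the line with the highest level. DHL6 read 5.31, 5.34 and 5.40 with R406 against 7.18, 7.18 and 7.17 with DMSO at 6 h, and 5.25, 5.32 and 5.35 with R406 against 7.41, 7.39 and 7.36 with DMSO at 24 h. The R406 arrays had come down to the range in which the other lines lay without any drug. The responses were -1.83 ± 0.09 (adjusted p = 3.25e-25), the 10th lowest of 11745 genes, and -2.08 ± 0.09 (adjusted p = 3.11e-28), the 28th lowest, or 3.56-fold and 4.23-fold lower. Against DMSO at 0 h they were -2.06 and -2.10.

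DHL4 had the next highest SLAMF1 level, though under the filter level. At 6 h it read 5.07, 4.94 and 5.12 with R406 against 5.76, 5.56 and 5.65 with DMSO, and at 24 h 5.18, 4.96 and 5.08 with R406 against 5.55, 5.49 and 5.39 with DMSO. Both pairs of groups were separate, with falls of 0.61 ± 0.09 (adjusted p = 1.63e-08) and 0.41 ± 0.09 (adjusted p = 4.18e-05). In LY7, HBL1 and U2932, with means between 4.79 and 5.10 in all groups, no SLAMF1 response passed, and all these means lay under the filter level.

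Averaged over the 5 lines, 7 of the 9 genes passed at 6 h (61.3% of all genes tested), 2 higher (32.2% of all genes tested were higher) and 5 lower (29.1% lower). At 24 h 8 passed (73.6%), 5 higher (33.7%) and 3 lower (39.9%). The members' median was -0.09 at 6 h and 0.09 at 24 h, against -0.01 at both times for all genes. CD27 and FAS were the genes higher at both times, CD27 by 0.28 at 6 h and 0.64 at 24 h and FAS by 0.25 and 0.36, and CD80 and SLAMF1 were lower at both, CD80 by 0.18 and 0.29 and SLAMF1 by 0.51 at 6 h and 0.53 at 24 h.

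These averages cover unlike lines. The average of CD86 was -0.02 at 6 h (adjusted p = 0.664) and -0.12 at 24 h (adjusted p = 0.00229), a value to which HBL1 contributed with the opposite sign, and the 24 h value missed the threshold after cyclic loess (-0.07, adjusted p = 0.0684). The averages of CD274 and TNFRSF14 at 24 h, 0.09 and 0.13, also missed it after subtraction of array medians (0.06 and 0.10), that of CD274 also after cyclic loess (0.05, adjusted p = 0.193), and the average of FAS was -0.34 and -0.13 against DMSO at 0 h. With the 5 lines as the replicates, none of the 9 genes passed at either time in limma, where 32 of 11745 genes passed at 6 h and 0 at 24 h. An unadjusted p under 0.05 was seen in 0 of 9 at 6 h (27.2% of all genes) and 3 of 9 at 24 h (31.1%).

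A moderated F-test asked whether the 5 responses of a gene differed from each other. At 6 h 7 of the 9 genes differed (63.3% of all genes tested), led by SLAMF1 (adjusted p = 1.71e-20) and CD86 (adjusted p = 6.25e-20), and at 24 h all 9 did (82.7%). TNFRSF14 was the weakest at 24 h (adjusted p = 0.0235). Taken as sets, HBL1 and U2932, which are usually classed as activated B cell-like, and DHL4, DHL6 and LY7, usually classed as germinal centre B cell-like, differed in 5 genes at 6 h (44.3%) and in the same number at 24 h (59.3%). The CD86 response was higher in the HBL1 and U2932 set by 1.28 ± 0.07 at 24 h (adjusted p = 1.02e-22), with responses of 1.37 in HBL1 and -0.06 in U2932 within that set. With 5 lines a set cannot be told apart from its lines, the classes are background knowledge and not labels, and with lines as replicates limma passed none of the 9 and 0 of all 11745 genes at either time, with unadjusted p under 0.05 in 2 of 9 at 6 h (13.5% of all genes) and 1 of 9 at 24 h (9.51%).

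The responses also shifted with time. The 24 h response exceeded the 6 h response, averaged over lines, in CD27 by 0.37, CD70 by 0.34 and CD274 by 0.22, and was lower in CD80, with a difference of -0.11, so 4 of 9 genes passed (58.8% of all genes tested). The CD80 difference missed the threshold with no filter (adjusted p = 0.0535) and with the trend and robust prior (0.0553). The difference passed for 6 genes in DHL4 (56.3%), for 4 in HBL1 (25.9%), for 3 in DHL6 (41.3%), for 2 in LY7 (32.6%) and for 1 in U2932 (22.9%). Within single lines the gain of CD27 was 0.76 in DHL4 (adjusted p = 0.000434) and 0.72 in DHL6 (adjusted p = 0.00135), and LY7 had a loss of 0.83 (adjusted p = 0.000297). The CD27 average also includes 0.85 in HBL1, where CD27 lay under the filter level in every group. U2932 entered it with 0.32, which did not pass (adjusted p = 0.223). CD86 in DHL4 was -0.78 at 24 h and 0.01 at 6 h, a difference of -0.79 (adjusted p = 1.65e-08).

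DMSO alone moved several of these genes, which bears on any value read against time 0. Averaged over the lines, 6 of the 9 genes were lower at 6 h than at 0 h (18.5% of all genes tested were lower) and 4 were lower at 24 h (16.8%), and none was higher at 6 h (22.9% were higher) or at 24 h (25.1%). The 24 h change of CD80 missed the threshold after cyclic loess (adjusted p = 0.0987). FAS led both, by -0.59 at 6 h and -0.49 at 24 h, mostly through DHL6, and CD86 at 6 h was -0.27 (adjusted p = 1.97e-09). CD86 was lower at 6 h in HBL1, U2932 and LY7. Its change in DHL4, -0.20 (adjusted p = 0.0371), lost the call without any 1 of the 6 arrays (adjusted p up to 0.0865) and with no filter (0.0620), and that in DHL6, 0.25 (adjusted p = 0.0117), lost it without array A at 0 h or array A at 6 h (adjusted p up to 0.0622). At 24 h no line passed the test against 0 h in CD86. Of the 47 responses that passed against DMSO of the same time, 41 kept direction and call against DMSO at 0 h, 2 lost the call and 4 changed sign. Both comparisons use the same R406 arrays. The matching share of all genes was not counted, so these counts are not a result about the 9 genes.

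As a check of RNA quality, the difference between the 3′ and 5′ control probe sets of beta-actin was compared. At 24 h it was higher with R406 than with DMSO by 0.45 in DHL6, 0.42 in LY7, 0.29 in DHL4, 0.27 in U2932 and 0.10 in HBL1, and at 6 h by 0.39 in LY7 and between -0.01 and 0.10 elsewhere. The part of this in the responses above was not tested.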

How the data were processed

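Total RNA of 5 lymphoma lines was measured on 75 arrays. The deposited table holds log2 values made by the authors with RMA, per the submitters' processing notes, with 19598 rows, of which 62 were control rows. RMA scales all arrays to one distribution, so a shift shared by all genes cannot be seen. The array number limits the precision, and array medians lay between 5.84 and 5.97.

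Genes whose highest group mean was above 5.89 were kept (7791 removed), and 25 group means were fitted with limma 3.58.1 in R 4.3.3, with eBayes, two-sided, 50 residual degrees of freedom, and Benjamini-Hochberg adjustment over 11745 genes per comparison. The fit was tested on simulated data. All measured genes of the list are named. The genes were listed for their role and not for a measured value, but the members, lists and tests were chosen with earlier results of these data known. Symbols follow the list, since the 59792 RefSeq genes carry no matching identifiers, and so related genes, markers and genes of like pattern were not analysed here. Alternatives changed the normalization, filter, prior, weights, control, replicate unit and arrays. Same-letter arrays did not pair: in 0 of 10 lines and times were all 3 correlations over 0.1.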

Additional observations from a re-analysis of the deposited data

Results flagged for a closer look

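These values come from direct tests of a difference between lines or times in the response to R406 (R406 minus DMSO of the same time), all with limma and an adjusted p under 0.05. The 5 line responses differed by the F-test at 6 h in SLAMF1 (adjusted p = 1.71e-20), CD86 (6.25e-20), CD274 (3.49e-12), FAS (1.53e-08), CD27 (4.34e-06), CD80 (0.00129) and CD70 (0.0392). At 24 h they differed in CD86 (adjusted p = 2.34e-25), SLAMF1 (2.91e-23), CD27 (9.13e-12), CD274 (1.57e-10), FAS (3.32e-09), ICOSLG (1.82e-07), CD70 (1.01e-05), CD80 (0.000244) and TNFRSF14 (0.0235).

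The response at 24 h minus that at 6 h, on the log2 scale, differed from 0 in 6 genes in DHL4 (56.3% of all genes tested passed), with CD70 at 0.83, CD27 at 0.76, ICOSLG at 0.47, FAS at 0.46, CD274 at 0.44 and CD86 at -0.79. DHL6 had 3 such genes (41.3%), CD27 at 0.72, CD70 at 0.59 and CD80 at -0.32. LY7 had TNFRSF14 at 0.45 and CD27 at -0.83 (32.6%). HBL1 had CD27 at 0.85, TNFRSF14 at 0.42, CD86 at 0.40 and CD274 at 0.32 (25.9%), and U2932 had CD70 at 0.45 (22.9%). CD27 lay under the filter level in every HBL1 group, and its 6 h response there, -0.34, did not pass (adjusted p = 0.0533). The CD27 difference in HBL1 ran from 0.60 to 1.07 in the 12 fits without 1 array, all of which passed. Those fits share 1 spread over all lines, while CD27 in these HBL1 groups had SDs of 0.13 to 0.44. They therefore do not test the difference against the scatter of HBL1 alone. In HBL1 the CD274 difference lost its call without any 1 of 5 arrays (DMSO A, R406 A or R406 B at 24 h, DMSO C or R406 C at 6 h; up to adjusted p = 0.215) and with no filter (0.0613), and that of TNFRSF14 likewise (DMSO C or R406 B at 24 h, DMSO A, DMSO B or R406 B at 6 h; up to 0.144; no filter 0.0563). That of CD80 in DHL6 lost it without DMSO A or R406 B at 6 h or R406 A at 24 h (up to 0.0903), and those of FAS (0.101) and CD274 (0.0551) in DHL4 did after cyclic loess. Averaged over the lines, the differences were 0.37 for CD27, 0.34 for CD70, 0.22 for CD274 and -0.11 for CD80.

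Between the line sets, the mean response of HBL1 and U2932 minus that of DHL4, DHL6 and LY7 at 6 h was 0.94 for CD86, 0.74 for SLAMF1, -0.21 for FAS, -0.52 for CD274 and -0.77 for CD27. At 24 h it was 1.28 for CD86, 0.78 for SLAMF1, -0.41 for CD27, -0.44 for FAS and -0.44 for CD274. SLAMF1 lay under the filter level in every group of HBL1 and U2932, and CD27 in every group of HBL1. CD274 lay under it in every group of the lines other than HBL1. Lines within a set were unlike. The CD274 response was -0.91 in HBL1 and 0.03 in U2932 at 6 h, and -0.59 and 0.25 at 24 h. That of FAS was -0.20 and 0.44 at 6 h, and -0.25 and 0.44 at 24 h. At 24 h SLAMF1 was -2.08 in DHL6, -0.41 in DHL4 and -0.02 in LY7. CD27 was then 1.40 in DHL4, 1.26 in DHL6 and -0.24 in LY7.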

How the results depend on the processing

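Of the 47 single-line responses that passed, 39 did so under every alternative in which the gene was tested with DMSO of the same time in the fit of all lines. The other 8, each named in the report with its arrays, lost the call in at least 1 fit without a single array. A further 9 responses did not pass in the main fit but passed in at least 1 of those fits. The matching shares of all genes were not counted. With the replicate block, letter within line, all 47 kept their calls and CD80 in DHL6 at 6 h passed (-0.18, adjusted p = 0.0305). Every group holds the letters A, B and C, so the block can change an SE but not a response. The 1.26 of CD27 in DHL6 at 24 h therefore stayed the same by design.

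With DMSO at 0 h as control, among values that passed against at least 1 of the controls, signs turned for CD86 at 6 h in DHL4 (-0.20) and U2932 (-0.34), CD70 at 24 h in DHL6 (-0.28) and LY7 (0.23), FAS in DHL6 at 6 h (-1.74) and 24 h (-1.60), FAS in U2932 at 6 h (-0.045), TNFRSF14 in HBL1 at 6 h (0.30), and the averages of FAS at 6 h (-0.34) and 24 h (-0.13) and of CD274 at 24 h (-0.17). HBL1 at 6 h then had 4 genes passing in place of 2 (32.6% of all genes in place of 22.3%), and 5 with array weights (32.2%).

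U2932 at 6 h had 2 passing genes (28.5% of all genes), 1 with cyclic loess (27.5%), 1 with array weights (26.0%) and, without single arrays, 1 (without R406 A, 24.8%, R406 B, 24.0%, or DMSO A, 20.8%) to 4 (without DMSO C, 31.3%). With the filter at the upper quartile of 7.88, only CD86, CD70 and CD27 were tested, among 6913 genes. The counts then were at 6 h 3 in DHL6 (55.8% of those genes), 2 in LY7 (63.4%) and 0 in U2932 (40.5%; none of the 3 passed there in the full fit either), and at 24 h 3 in DHL4 (80.4%), 2 in HBL1 (59.6%), 3 in DHL6 (73.2%), 1 in LY7 (76.0%) and 1 in U2932 (49.3%). For averages they were 2 at 6 h (75.5%), 3 at 24 h (85.7%) and 2 for 24 h minus 6 h (71.2%), for the line sets 3 at 6 h (59.8%) and 2 at 24 h (73.3%), for the DMSO change 2 at 6 h (55.5%) and 0 at 24 h (55.8%), and for the F-tests 3 at 6 h (82.8%), 3 at 24 h (94.3%) and 3 at 0 h (99.2%). With lines as replicates, limma passed 0 of 9 genes for averages and 0 for line sets at both times, as for all but 32 of the 11745 genes (averages at 6 h). At an unadjusted p under 0.05, averages had 0 of 9 at 6 h (27.2% of all genes) and 3 at 24 h (31.1%), and sets had 2 at 6 h (13.5%) and 1 at 24 h (9.51%). The causes of these changes were not tested.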
